A study of Mus musculus with 7 samples.

Results

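The 34 genes described here encode the machinery that copies DNA and the enzymes that supply its nucleotides. They were taken as a fixed list of symbols: for each gene, the rows of the deposited table whose RefSeq transcript belongs to it were found (43 rows in all), and the row with the highest mean over the libraries was used. All 34 were found, of 20294 genes in the table, and 33 had a mean value of at least 1, the limit for the trend test. By role, 16 members act in licensing and helicase assembly, 11 in DNA synthesis and maturation, 3 in making deoxynucleotides and 4 in chromatin supply and its control.

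The cells were E14, a mouse embryonic stem (ES) cell line kept in 2i medium, which holds such cells in the naive state. Every library, 0 h included, came from cells with the Brn2-RFP GAVPO cassette, where light switches on the factor GAVPO, which in turn drives the neural POU factor Brn2 (listed as Pou3f2) with a red fluorescent protein. Cells in an Ibidi plate were lit by an LED at 300 µW for 0, 2, 4, 6, 14, 24 or 48 h. Each time is 1 library, so all 7 libraries are single samples, and the labels do not say whether the line is 1 clone.

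Before S phase, the origin recognition complex, Cdc6 and Cdt1 load the ring of Mcm2 to Mcm7 onto origins, which licenses them to fire. At firing, Cdc45 and the GINS complex join the ring to form the working helicase, after which polymerases, the sliding clamp Pcna and its loader RFC copy both strands while RPA covers the single strands. Many of these genes are classical targets of E2F factors and peak at the G1/S boundary. Naive mouse ES cells cycle fast with a short G1 phase and keep replication genes highly expressed, while the licensing genes are shut down when neurons leave the cell cycle.

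A deposited value behaves as the number of reads per kilobase of the gene's whole genomic span (introns included), scaled to library size, so values are compared here over time within a gene, and levels between genes only after rescaling to transcript length. Depth implied by the values was 7.06 to 16.1 M reads per library, and no member had fewer than 142 reads in any library (Gins3 at 14 h). All 9 ES markers reached a value of 1, with summed values of 1171 to 1893. They went both ways between 0 and 48 h. Dppa5a, the largest part of the sum in every library, stood at 1076 and 491 and Zfp42 at 55.5 and 34.3. Utf1 stood at 28.7 and 364 and Pou5f1 at 154 and 235. Of 8 neuron markers, 3 reached 1, and the sum over all 8 was 7.06 at 0 h and 50.02 at 48 h. The sum was mostly Tubb3, at 5.40 and 44.6, while Elavl3 stood at 0.151 and 1.44, Dcx at 0.00435 and 0.107, and Rbfox3, which marks mature neurons, at no more than 0.00169 in any library. Marker sums and the limit of 1 use the values per genomic span, so genes with a long span count for less. A low marker value is thus not by itself a low RNA level. The part of these neuron markers in the results below was not tested. Fibroblast and feeder markers reached 1 in 2 of 8 cases (sums 0.464 to 3.31), endoderm markers in 1 of 6 (0.686 to 5.32) and trophoblast markers in 0 of 5 (0.856 to 1.75). The endoderm marker that reached 1 was Foxa2, at 0.115 at 0 h and 4.62 at 48 h. The fibroblast markers that did were Col1a2, at 0.045 and 2.16, and Thy1, at 0.427 and 1.05. Among 8 genes of cell cycle exit, 7 reached 1, with sums of 36.3 to 87.8, and members went both ways between 0 and 48 h: the arrest gene Cdkn1a stood at 7.29 and 18.6, and its relative Cdkn1b at 8.62 and 6.22. Pou3f2 itself had values of 77.0, 36.9, 47.3, 96.2, 119, 41.3 and 7.19 from 0 to 48 h, so the 0 h library was not low in it and the 48 h library was the lowest. In bulk RNA, fewer cells in S phase and less RNA per cell cannot be told apart.

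Because the members are known as E2F targets, the 250 bases before the start of 4 of them are shown, as annotated by RefSeq on GRCm38.p6 and written 5′ to 3′ on the gene's strand. Capitals mark E2F words, which were TTTGGCGC, TTTCGCGC, TTTCCCGC and TTTGCCGC on either strand, with overlapping matches each counted. Mcm6 (chr1:128359706-128359955, minus strand) and Mcm5 (chr8:75109259-75109508, plus strand), both of the helicase ring, were chosen because they hold more than 1 word. Cdc6 (chr11:98907901-98908150, plus strand) and Orc1 (chr4:108579204-108579453, plus strand), which load the ring, were chosen with 1 word each.
Mcm6: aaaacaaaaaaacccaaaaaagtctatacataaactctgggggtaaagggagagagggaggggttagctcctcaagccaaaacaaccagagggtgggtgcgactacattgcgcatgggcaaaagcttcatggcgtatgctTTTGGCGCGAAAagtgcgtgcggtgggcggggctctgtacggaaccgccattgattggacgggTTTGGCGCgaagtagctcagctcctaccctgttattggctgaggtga
Mcm5: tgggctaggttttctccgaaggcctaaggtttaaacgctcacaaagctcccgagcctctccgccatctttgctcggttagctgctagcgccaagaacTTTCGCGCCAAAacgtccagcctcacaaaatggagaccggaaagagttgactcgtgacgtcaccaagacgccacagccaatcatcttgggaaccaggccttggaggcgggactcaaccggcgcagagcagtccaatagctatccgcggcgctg
Cdc6: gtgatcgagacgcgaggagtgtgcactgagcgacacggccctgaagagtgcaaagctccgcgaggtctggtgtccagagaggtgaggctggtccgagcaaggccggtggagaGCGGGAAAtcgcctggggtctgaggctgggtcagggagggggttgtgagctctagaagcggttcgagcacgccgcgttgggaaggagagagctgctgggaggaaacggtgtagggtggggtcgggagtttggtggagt
Orc1: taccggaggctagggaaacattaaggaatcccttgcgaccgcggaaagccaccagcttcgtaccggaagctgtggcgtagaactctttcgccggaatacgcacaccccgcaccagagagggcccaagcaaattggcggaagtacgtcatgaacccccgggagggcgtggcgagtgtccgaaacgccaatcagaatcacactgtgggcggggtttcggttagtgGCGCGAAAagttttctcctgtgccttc
In Mcm6 the words begin 110, 106 and 47 bases before the start, the first pair overlapping. In Mcm5 they form 1 overlapping pair 153 and 149 bases before it. Cdc6 has its word 138 bases and Orc1 27 bases before the start.

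Promoter windows of 300 bases, 250 before and 50 after the start, were found for 30 of the 34 members, and Mcm4, Gins1, Gins2 and Gins4 had none. An E2F word was present in 12 of the 30 (40%): Cdc6, Cdt1, Gins3, Lig1, Mcm3, Mcm5, Mcm6, Mcm7, Orc1, Pola1, Pold1 and Rfc3. The share was 2.61% of 27025 genes with a window and 5.47% of the 5262 tested genes with one. Among 41 further replication genes with a window it was 29.3%, and among 34 genes of G2 and mitosis 2.94%. The CCAAT word of NF-Y was in 70% of the members with a window, against 41.1% of all genes and 79.4% of the G2 and mitosis genes. GGGCGG, the core of an Sp1 site, was in 73.3% of members, close to the 70.4% of tested genes. These words describe the letters of the windows and say nothing of binding in these cells. Only windows at the annotated starts were searched, so a member without a word there, such as E2f1, may hold one elsewhere.

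Levels per kilobase of transcript, the scale on which genes can be compared, ran over more than an order of magnitude. Pcna had the highest mean at 275 reads per kilobase of transcript per M reads, followed by Mcm6 at 220, Mcm3 at 191, Rrm2 at 178 and Mcm2 at 160. All 6 subunits of the ring lay among the 8 highest members by this measure, with Mcm4 at 138, Mcm7 at 133 and Mcm5 at 109. The lowest were Gins3 at 7.81, Cdc6 at 11.2, Pola1 at 13.1, Fen1 at 15.5, E2f1 at 15.6 and Gins2 at 16.0. Cdc6 and Fen1 are among 7 members with more than 1 row, of which only the highest was used. How reads were divided among the rows of a gene is not known, so the levels of these 7 may be too low. For Mcm5, Fen1, Slbp and Gins1 the length was that of the gene's longest coding transcript, not of the listed one. Together the 34 members took 0.568% (6 h) to 0.666% (2 h) of the implied reads, with 0.632% at 0 h and 0.593% at 48 h. Neighbours in this order could overlap in their range over libraries: Mcm3 spanned 175 to 217 and Rrm2 146 to 220 on the same scale.

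**Figure D1:**
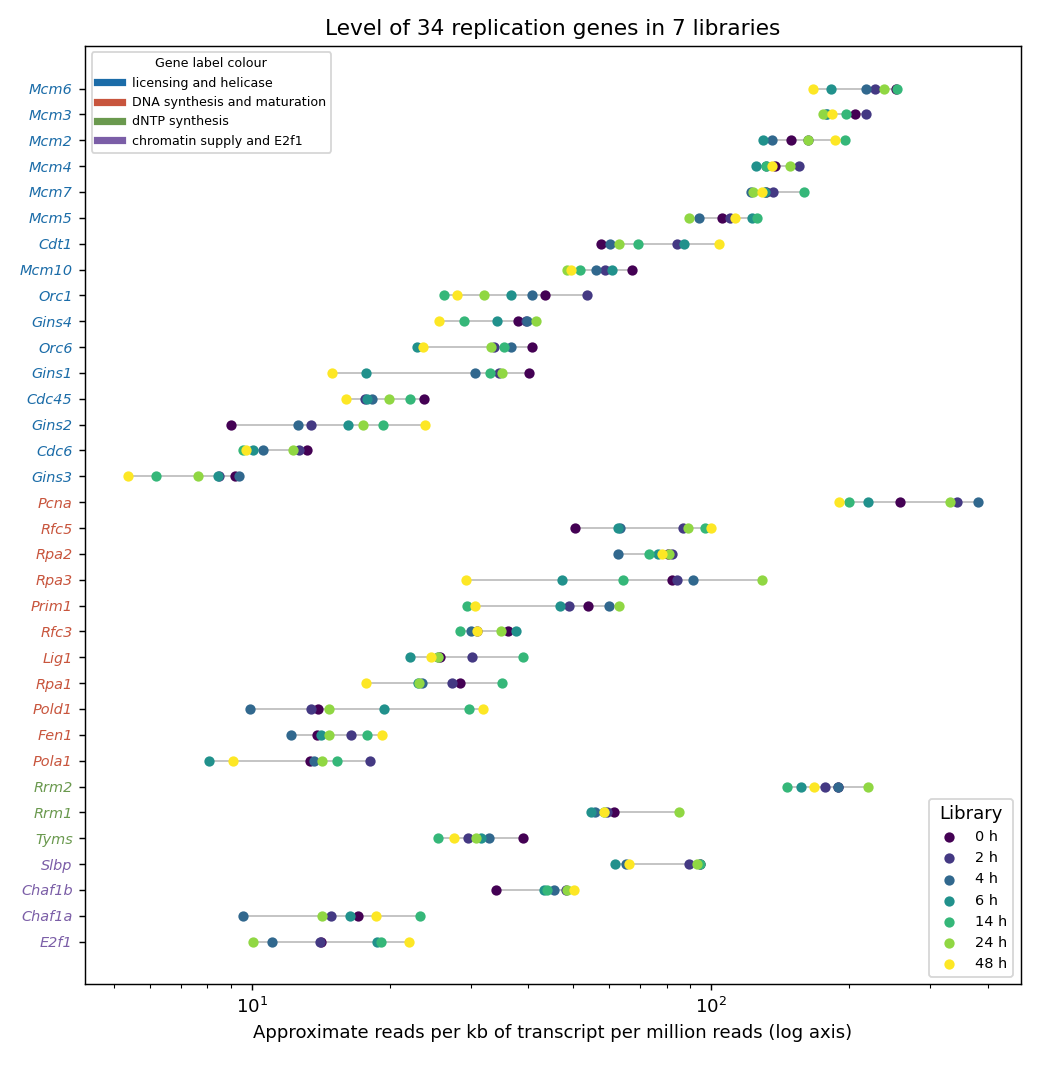
Approximate reads per kilobase of transcript per M reads (log axis) of the 34 members, grouped by role, with 1 point per library coloured by its labelled time and a line from lowest to highest. Pcna, Rrm2 and the 6 ring subunits stand highest, Gins3 and Cdc6 lowest, and the widest line is that of Rpa3.

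No member passed the trend test, a limma fit of log2(value + 1) on log2(hours + 1) through the 7 libraries. Of 6411 genes tested, 23 were called at an adjusted p under 0.05, or 0.359%, a share so low that the 0 of 33 members called say little about the members. At an unadjusted p under 0.05 there were 5 of 33 members (Gins2, Rfc5, Orc1, Pold1 and Gins3) and 1381 of all 6411. The median fitted change from 0 to 48 h was -0.11 on the log2 scale for the members, 13 positive and 20 negative, and 0.01 for all genes tested. With each library's trend on transcript GC content removed, the median was -0.14, with 8 positive and 25 negative, and again 0 were called. A second fit, limma-voom on approximate reads recovered from the values, tested 13506 genes and called 407 of them, 3.01%, with 303 higher and 104 lower at late times. All 34 members entered that fit, and 1 of them, Gins2, rose. That share is near the 3.01% of all genes, so this 1 call says little about the members as a set. With the GC trend removed from those reads 2.35% of genes were called and 0 members.

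**Figure D2:**
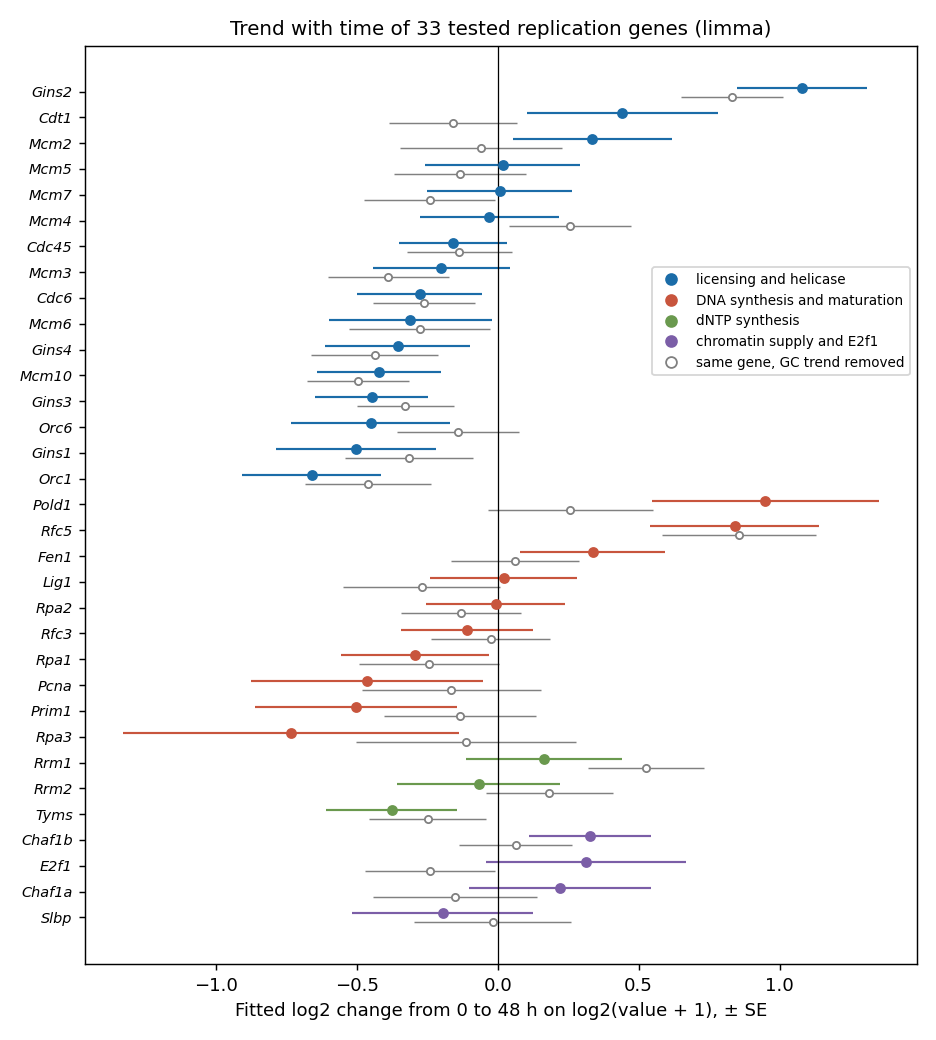
Fitted log2 change from 0 to 48 h with its standard error for the 33 tested members, by role, from the limma fit, and in open circles with the GC trend removed. Gins2 stands highest at 1.08 and Rpa3 lowest at -0.73, and no member passed an adjusted p of 0.05.

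Against the 0 h library alone, no member was 2-fold away at any time up to 24 h on the log2 scale with 1 added, where 3.07%, 1.59%, 3.24%, 4.20% and 3.90% of all genes were in the libraries of 2, 4, 6, 14 and 24 h. At 48 h, 13.3% of all genes had passed that fold, and of the members Gins2 lay above it and Rpa3 below it. The members' median log2 ratio to 0 h was -0.01, -0.13, -0.15, -0.06, -0.02 and -0.17 at 2, 4, 6, 14, 24 and 48 h, and that of all genes stayed between -0.05 and 0.05. Most members held a narrow range: the highest library exceeded the lowest by under 2-fold in 24 of 33 members (72.7%) and in 51.7% of all tested genes. The median of this ratio was 1.58 for members and 1.97 for all genes, and at a mean value of at least 20 it was 1.51 for 9 members and 1.84 for 696 genes. Members and all genes were not matched on GC content or read number here, and the part of either was not tested.

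**Figure D3:**
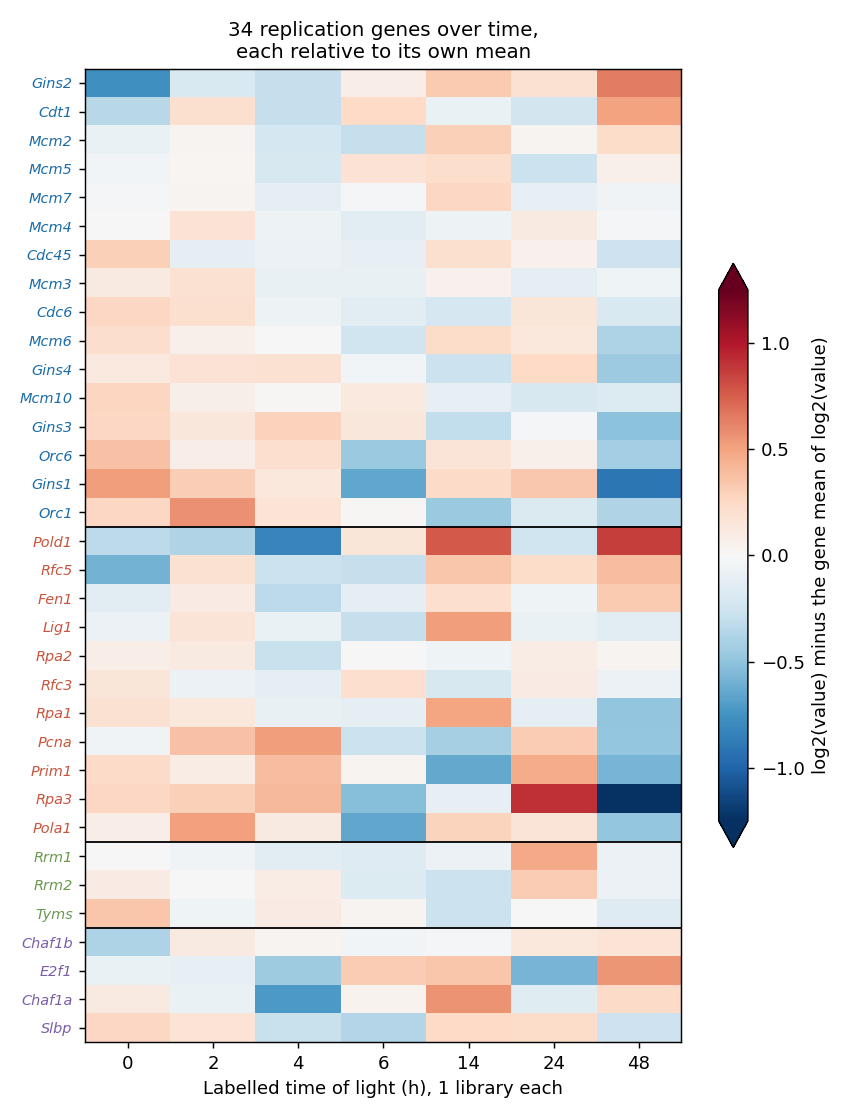
Colour gives log2 of each value minus that gene's mean over the 7 libraries, with members in rows by role and libraries in columns. Gins2 runs from low at 0 h to high at 48 h, whereas Rpa3 is highest at 24 h and lowest at 48 h.

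The 6 subunits of the Mcm2 to Mcm7 ring, the motor of the replicative helicase, varied little. Mcm7 had values of 49.7, 51.5, 46.1, 49.5, 60.1, 46.7 and 48.7 from 0 to 48 h. Mcm4 had 36.6, 41.4, 34.9, 33.3, 35.0, 39.5 and 36.0. Neither had its 48 h value outside the range of the earlier libraries, and the fitted changes were 0.01 ± 0.26 for Mcm7 (SE, limma adjusted p = 0.992) and -0.03 ± 0.25 for Mcm4 (limma adjusted p = 0.951). Mcm3 stayed between 30.6 and 37.9 and Mcm5 between 15.9 and 22.5. Mcm2 ran from 28.6 to 43.1 and was highest at 14 h, and Mcm6 from 17.3 to 26.3 with its lowest value at 48 h. The fitted change was 0.34 for Mcm2 (limma adjusted p = 0.493), and -0.06 with the GC trend removed, and -0.31 for Mcm6 (limma adjusted p = 0.539). Since the 6 proteins are used in equal numbers, their levels per transcript kilobase were also set side by side: the highest exceeded the lowest by 1.49-fold (6 h) to 2.66-fold (24 h). Mcm5 was the lowest subunit in all 7 libraries and Mcm6 the highest in 6, with Mcm2 highest at 48 h. The length used for Mcm5 was that of the gene's longest coding transcript, so its place rests on that choice. Together the 6 took 0.276% to 0.337% of the implied reads.

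Loading of that ring depends on the origin recognition complex, Cdc6 and Cdt1. Orc1, the ATPase of the complex that is regulated over the cell cycle, had values of 3.70, 4.57, 3.48, 3.12, 2.24, 2.72 and 2.38. Its 3 latest libraries were below its 4 earlier ones, with a fitted change of -0.66 ± 0.25 (SE, limma adjusted p = 0.170) and a 48 h value 0.644 times that of 0 h (95% counting interval 0.601 to 0.691). Reads of Orc1 may be mixed with those of the overlapping splicing gene Prpf38a, whose value went from 9.12 at 0 h to 3.95 at 48 h. Orc6, the smallest subunit, lay between 3.56 and 6.33 with its low values at 6 and 48 h. Cdc6, which completes the loader on the origin, ranged from 2.73 to 3.78 (fitted change -0.28, limma adjusted p = 0.469).

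Cdt1, which brings the ring to the origin and is destroyed once S phase begins, had values of 24.7, 36.1, 25.8, 37.4, 29.7, 26.9 and 44.5. It was high at 2, 6 and 48 h and low at the times between, with a fitted change of 0.44 ± 0.34 (SE, limma adjusted p = 0.450). With the GC trend removed that change was -0.16, and without the 48 h library 0.08. Mcm10, a factor for activating the loaded helicase, had its highest value at 0 h (10.7) and stood at 7.67 and 7.84 in the last libraries, a fitted change of -0.42 (limma adjusted p = 0.285). Cdc45, a partner of the active helicase, varied between 1.09 and 1.61 and overlaps Ufd1.

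Among the 4 GINS subunits, which hold Cdc45 to the ring as a tetramer, Gins2 had a positive fitted change and the other 3 a negative one. Gins2 had values of 3.30, 4.91, 4.60, 5.93, 7.05, 6.38 and 8.70, from 523 approximate reads at 0 h and 1496 at 48 h. The 0 h library was the lowest and the 48 h library the highest, at 2.64 times 0 h (95% counting interval 2.39 to 2.92). Its fitted change was 1.08 ± 0.23 (SE, limma adjusted p = 0.066), and on recovered reads it rose by 1.29 ± 0.29 (SE, limma-voom adjusted p = 0.038). That call depended on several libraries: the adjusted p from limma-voom was 0.205 without 0 h, 0.057 without 2 h, 0.082 without 4 h, 0.0504 without 6 h and 0.398 without 48 h, and it held without 14 h (0.0495) or 24 h (0.030). With the GC trend removed from the reads the change was 1.01 (limma-voom adjusted p = 0.056). Gins2 also overlaps Gse1, whose value was 0.402 at 0 h and 1.49 at 48 h, from 250 and 1008 approximate reads. On recovered reads the change of Gse1 was 1.35 ± 0.43 (SE, limma-voom adjusted p = 0.0999), close in size to that of Gins2. How many reads the 2 genes share was not tested.

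Gins1 had values of 2.01, 1.73, 1.53, 0.889, 1.65, 1.76 and 0.748. The 6 and 48 h libraries were well below the others, the latter at 0.373 times 0 h (95% counting interval 0.321 to 0.431), and the fitted change was -0.50 ± 0.28 (SE, limma adjusted p = 0.317), or -0.32 with the GC trend removed and -0.17 without the 48 h library. Gins3 ranged from 1.16 to 2.04 and was lowest at 48 h, with a fitted change of -0.45 (limma adjusted p = 0.231). Gins4 ranged from 3.12 to 5.08, also lowest at 48 h (-0.36, limma adjusted p = 0.427). Per kilobase of transcript, the level of Gins2 was 0.310, 0.488, 0.473, 0.807, 0.848, 0.621 and 1.56 times the mean of the other 3 from 0 to 48 h. Gins2 was thus below that mean in the 6 earlier libraries and above it at 48 h, and this ratio carries no test because Gins2 was picked for its values. Over the 16 licensing and helicase genes the median fitted change was -0.24, with 5 positive and 11 negative and 0 called.

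**Figure D4:**
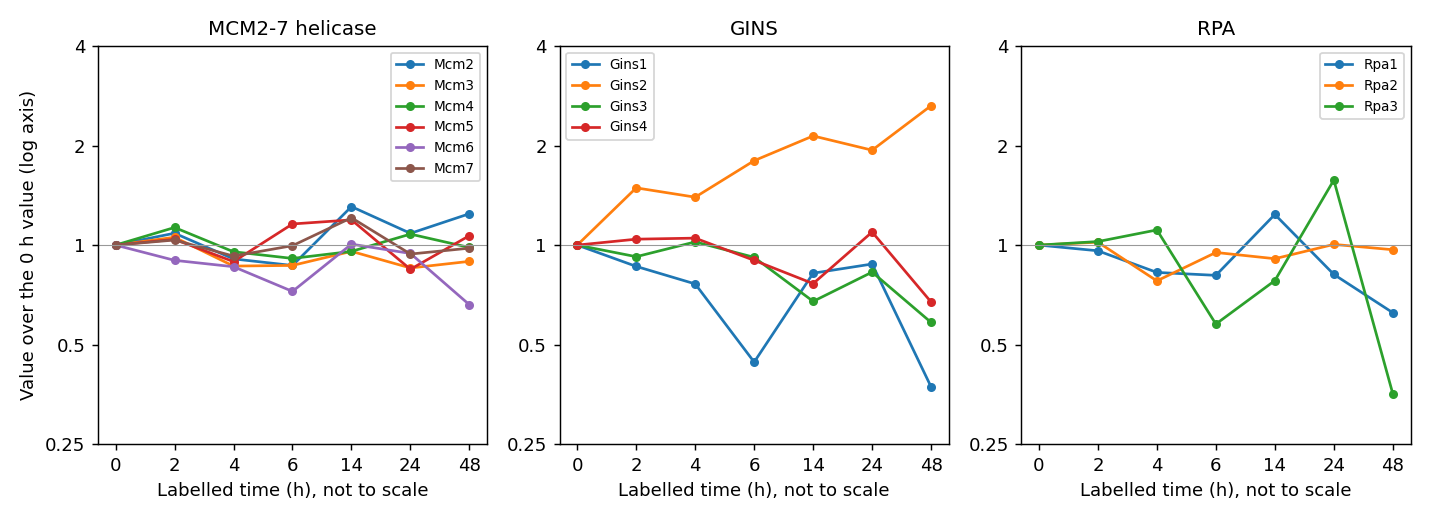
Each value divided by that gene's 0 h value (log axis) against labelled time, not to scale, for the Mcm2 to Mcm7 ring, GINS and RPA, 1 line per subunit and 1 library per point. The 6 ring subunits stay near 1, Mcm6 ending lowest at 0.660, Gins2 parts from the other GINS genes to reach 2.64 at 48 h, and Rpa3 ends at 0.355.

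Genes of DNA synthesis were more spread. Pcna, the sliding clamp that tethers polymerases to DNA, had values of 94.3, 126, 139, 80.4, 73.0, 121 and 69.3. It was high at 2, 4 and 24 h and low at 6, 14 and 48 h, and its fitted change was -0.46 ± 0.41 (SE, limma adjusted p = 0.519), or -0.17 with the GC trend removed and -0.11 without the 48 h library. Rfc5, a small subunit of the loader that opens the clamp, had 12.9, 22.2, 16.2, 16.0, 24.8, 22.8 and 25.5. Its 0 h library was the lowest and the fitted change was 0.84 ± 0.30 (SE, limma adjusted p = 0.160), and 0.86 with the GC trend removed, while another small subunit, Rfc3, stayed between 4.40 and 5.85. The 48 h value of Rfc5 was 1.98 times that of 0 h (95% counting interval 1.88 to 2.08).

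Pold1, the catalytic subunit of the lagging-strand polymerase delta, had values of 2.99, 2.89, 2.12, 4.16, 6.38, 3.15 and 6.82. The 14 and 48 h libraries were about equally high and the 24 h library was back near 0 h. Its fitted change was 0.95 ± 0.40 (SE, limma adjusted p = 0.212), and 0.26 with the GC trend removed; Pold1 had the highest GC content of the members, 60.7%. Prim1, the primase subunit that makes the RNA primer, had values of 5.74, 5.21, 6.36, 4.98, 3.14, 6.72 and 3.26, low at 14 and 48 h only. Its fitted change was -0.50 (limma adjusted p = 0.419), or -0.13 with the GC trend removed and -0.17 without the 48 h library. Pola1, the polymerase alpha subunit that extends this primer, was listed at 0.132 to 0.295 per kilobase of its long genomic span, under the mean of 1 needed for the main test. On recovered reads its change was -0.42 (limma-voom adjusted p = 0.553).

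Of the 3 RPA subunits that coat single-stranded DNA, the smallest, Rpa3, was the most variable member. It had values of 17.0, 17.4, 18.9, 9.82, 13.3, 26.8 and 6.05. The highest library, 24 h, exceeded the next in time, 48 h, by 4.43-fold, and the fitted change of -0.73 ± 0.60 (SE, limma adjusted p = 0.478) became -0.11 with the GC trend removed. Without the 48 h library the fitted change was 0.20. Rpa2 stayed between 10.9 and 14.3 and Rpa1 between 1.79 and 3.55, highest at 14 h. Per kilobase of transcript, the level of Rpa3 was 1.51 times the mean of Rpa1 and Rpa2 at 0 h, against 2.48 times in the 24 h library and 0.610 times in the 48 h library. Rpa3 had the lowest GC content of the members, 40.4%.

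Okazaki fragments are trimmed by the flap nuclease Fen1 and sealed by the ligase Lig1. Fen1 ranged from 5.49 to 8.67 (fitted change 0.34, limma adjusted p = 0.449) and Lig1 from 2.10 to 3.69 (0.02, limma adjusted p = 0.968). Fen1 shares its locus with Tmem258, whose value was 10.6 at 0 h and 29.3 at 48 h, and Lig1 overlaps Zswim9. Of the 10 synthesis genes tested, 4 had a positive and 6 a negative fitted change, with a median of -0.06.

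The 3 genes of deoxynucleotide synthesis each stayed within 1.56-fold. Rrm2, the subunit of ribonucleotide reductase that limits its activity in S phase, had values of 70.3, 65.8, 70.1, 58.3, 54.3, 81.5 and 62.2. Rrm1, the catalytic subunit, had 8.76, 8.44, 7.94, 7.79, 8.31, 12.1 and 8.31. Both were highest at 24 h, and neither passed the trend test (-0.07 for Rrm2, limma adjusted p = 0.905, and 0.16 for Rrm1, limma adjusted p = 0.745). Per transcript kilobase Rrm2 exceeded Rrm1 by 2.51-fold (14 h) to 3.38-fold (4 h). Tyms, which makes thymidylate, had 8.33, 6.33, 7.03, 6.74, 5.45, 6.58 and 5.89, highest at 0 h, with a fitted change of -0.38 (limma adjusted p = 0.357).

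The last group supplies or regulates chromatin on new DNA. Slbp, which binds the stem-loop of histone mRNAs, had values of 14.4, 13.6, 9.93, 9.39, 14.4, 14.2 and 10.1, low at 4, 6 and 48 h (fitted change -0.20, limma adjusted p = 0.741). E2f1, the transcription factor at G1/S, had 3.69, 3.66, 2.88, 4.88, 4.98, 2.63 and 5.74, highest at 48 h and lowest at 24 h. Its fitted change of 0.31 ± 0.36 (SE, limma adjusted p = 0.621) was -0.24 with the GC trend removed. Chaf1b, a subunit of the histone chaperone that follows Pcna, had 2.94, 4.17, 3.93, 3.75, 3.79, 4.21 and 4.35, with 0 h below the rest (0.33, limma adjusted p = 0.389). Chaf1a, its largest subunit, ranged from 1.77 at 4 h to 4.32 at 14 h. In this group 3 of 4 fitted changes were positive, but 1 of 4 with the GC trend removed.

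Fitted changes of the members moved with the GC content of their transcripts. Over 33 members Spearman's rho between change and GC content was 0.74, a description across genes that share the same 7 libraries, and over 6386 genes with a known GC content it was 0.60. The 11 members of lowest GC content (40.4% to 47.8%) had a median fitted change of -0.45, with 1 positive. The 11 of highest GC content (52.5% to 60.7%) had a median of 0.33, with 10 positive. With the GC trend removed these medians were -0.13 and -0.15. Libraries differed in this slope: across members, rho of the deviation from the gene's mean with GC content was -0.64, -0.30, -0.71, 0.46, 0.60, -0.66 and 0.75 from 0 to 48 h, so that GC-rich members were relatively high at 6, 14 and 48 h. Among all tested genes those in the top bin of 10 by GC content had a median deviation of -0.27 at 0 h and 0.41 at 48 h on the log2 scale. GC content therefore moved with the members' direction, but not with every member's size of change. After its trend was removed, Gins2 stood at 0.83, Rfc5 at 0.86, Mcm10 at -0.50 and Orc1 at -0.46, and Rrm1 went from 0.16 to 0.53. Orc6 went from -0.45 to -0.14, Fen1 from 0.34 to 0.06, Chaf1b from 0.33 to 0.06 and Slbp from -0.20 to -0.02.

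**Figure D5:**
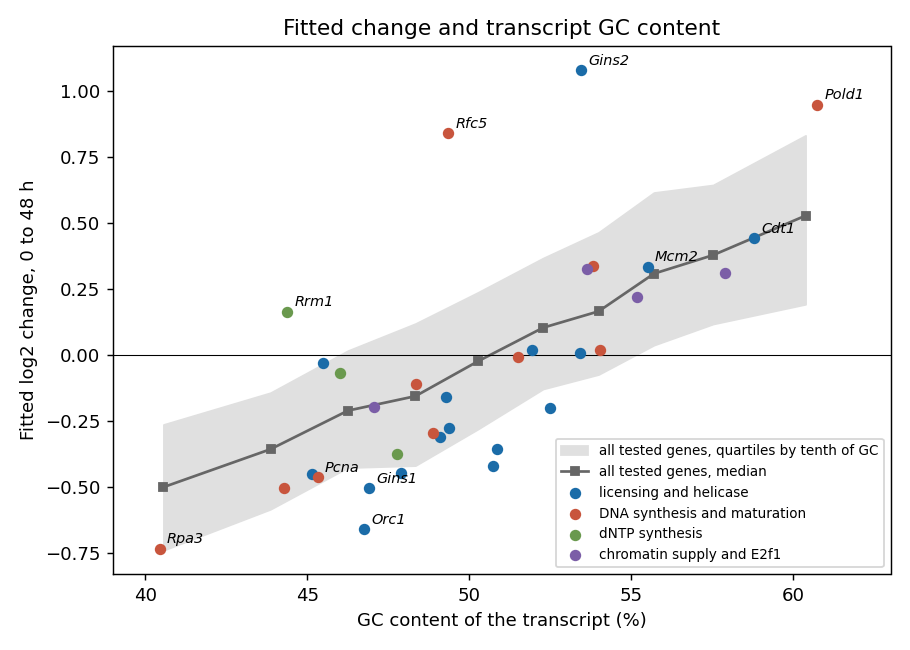
Fitted log2 change from 0 to 48 h against transcript GC content (%) for the 33 tested members, coloured by role, over the median (line) and quartiles (grey) of all tested genes in 10 bins of GC content. Fitted changes tend to be higher at higher GC content, from Rpa3 at 40.4% to Pold1 at 60.7%. Between the quartiles of their GC bin lie 21 of the 33 members. That band by definition holds a large share of all tested genes, so this count alone does not show that members follow the line. Gins2, Rfc5, Rrm1 and Pold1 lie above the upper quartile of their bin, and 8 members, Orc1 and Mcm10 among them, below the lower one.

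A pattern chosen after the values were seen was a value lower at 6 h than at 4 h and also lower at 48 h than at 24 h. It was present in 18 of 33 members (54.5%), among them Pcna, Rpa3, Prim1, Gins1, Orc6, Rrm1 and Rrm2, and in 33.02% of all tested genes. The opposite pattern was present in 10 members (30.3%), among them Gins2, Cdt1, Pold1 and E2f1, and in 46.1% of all genes. Median GC content was 47.0% in the 18 and 53.6% in the 10, so both patterns moved with GC content as well.

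The wider pathway was read from further lists. Of 51 other replication genes in the table, 39 were tested and 0 called, with a median fitted change of -0.17 (15 positive), which turned to 0.03 (20 positive) with the GC trend removed. The largest were Rnaseh2c, a subunit of the nuclease that removes ribonucleotides from DNA (6.93 at 0 h and 18.6 at 48 h, change 1.36, limma adjusted p = 0.062, 0.80 with the GC trend removed), and Dbf4, which activates the kinase that fires origins (5.90 and 2.11, -0.93, limma adjusted p = 0.115, -0.57 with the GC trend removed). Chtf8, part of an alternative clamp loader, had 14.98 at 0 h and 24.1 at 48 h, and Asf1a, a histone chaperone, 7.79 and 3.45. Both overlap another coding gene, and neither passed the test (changes of 0.76 and -0.89, or 0.42 and -0.15 with the GC trend removed).

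Of 35 nucleotide synthesis genes, 30 were tested and 0 called, with 16 positive and 14 negative. Tk1, the salvage kinase of thymidine, had values of 1.69, 2.41, 1.88, 2.21, 3.31, 3.62 and 5.09. Its change was 1.14 (limma adjusted p = 0.066), and on recovered reads it rose by 1.60 (limma-voom adjusted p = 0.035), with an adjusted p of 0.097 from limma-voom once the GC trend was removed. The call was lost without the 0 h (0.073), 4 h (0.074) or 48 h library (limma-voom adjusted p = 0.467), and Tk1 overlaps Afmid. Dctpp1, which clears modified dCTP, stood at 10.7 at 0 h and 30.5 at 48 h (1.04), Dtymk, the kinase of thymidylate, at 61.8 and 31.7 (-0.80), and Mthfd2, a mitochondrial folate enzyme, at 7.67 and 3.79 (-0.61). None of these 3 passed the test, and removing the GC trend gave 0.48, -0.73 and -0.61 in the same order.

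E2F and Rb family genes with S phase cyclins had 13 of 22 tested and 0 called, with a median of 0.54 (9 positive), or 0.29 (7 positive) with the GC trend removed. Ccnd1, the cyclin that relays growth signals to the Rb pathway, had values of 2.10, 12.3, 6.82, 6.31, 8.82, 34.6 and 48.7. It was lowest at 0 h and highest at 24 and 48 h, with a change of 3.57 (limma adjusted p = 0.052), and on recovered reads it rose by 4.13 (limma-voom adjusted p = 0.011), a call lost without the 48 h library (0.198) and kept without any other. With the GC trend removed from the reads the change of Ccnd1 was 4.04 (limma-voom adjusted p = 0.020). Ccnd1 overlaps another coding gene, LTO1. E2f4, a mostly repressive family member, had 14.0 at 0 h and 36.9 at 48 h (1.10, limma adjusted p = 0.108, 0.66 with the GC trend removed). E2f6 (-0.59) and E2f5 (-0.51) did not pass either, and stood at -0.58 and -0.31 with the GC trend removed.

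Genes of G2 and mitosis gave a median of -0.15 over 38 tested, 0 called, or -0.04 with the GC trend removed. On recovered reads the kinetochore gene Ndc80 fell by 1.79 (limma-voom adjusted p = 0.035), with values of 1.499 at 0 h and 0.342 at 48 h, and that call was lost without the 0 h (0.101), 4 h (0.066) or 48 h library (0.475). With the GC trend removed from the reads the change of Ndc80 was -1.36 (limma-voom adjusted p = 0.047). The largest other changes were those of the mitotic kinase Plk1 (1.08), the ubiquitin-conjugating enzyme Ube2c (0.69), the kinetochore gene Spc25 (-0.996) and the checkpoint kinase Bub1 (-0.70), none past the test. Removing the GC trend gave 0.65, 0.57, -0.47 and -0.12. Replication-dependent histone genes, made in S phase to package the new DNA, had a median of 0.78 over 48 tested, 46 positive and 0 called. With the GC trend removed that median was 0.09 with 28 positive. The largest positive changes were those of H4c1 (0.864 at 0 h and 5.97 at 48 h, change 1.31, limma adjusted p = 0.160) and H2ac18 (1.05 and 2.79, 1.27, limma adjusted p = 0.122), which became 0.86 and 0.48 with the GC trend removed. H3c14 (-0.17) and H2bc9 (-0.01) were the only ones below 0 in the main fit. Histone genes have near-identical copies, so how their reads were divided is uncertain.

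Some members share reads with a neighbour, since 9 of 34 overlap another protein-coding gene and no source used here says whether counting used strand. Beside those named above these were Mcm7 with Ap4m1, E2f1 with Necab3, Chaf1a with Ubxn6 and Rpa1 with Smyd4. Necab3 went from 0.251 at 0 h to 1.03 at 48 h, its highest library and that of E2f1. Ubxn6 was highest at 14 h (11.1, against 6.34 at 0 h), as was Chaf1a. Ap4m1 ranged from 2.55 to 5.03, highest at 6 h where Mcm7 was not, and Smyd4 from 0.191 to 0.408, also highest at 6 h, while Rpa1 was highest at 14 h. How far reads were shared was not tested.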

How the data were processed

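Messenger RNA was sequenced at 7 times, 1 library each, with RNeasy RNA and Lexogen SENSE libraries per the labels' protocols. Per the submitters' processing notes, Bowtie2 (version not stated) and the mm9 build were used; the counting method is not given in the sources. The authors deposited 1 expression signal per RefSeq transcript and library with no named unit. Multiplied by genomic span and a library factor, 80.0% to 81.3% of values worth 2 to 20 reads came within 0.1 of a whole number, where chance gives 20%. Spans came from GRCm38, so recovered reads are approximate. For Mcm5, Gins1, Slbp and Fen1, transcript length and GC content were those of the gene's longest coding transcript.

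Of 30673 rows, 3320 start-site rows at 0 and 695 further placements of a transcript were left out. Symbols were matched by accession. Because the deposited signal is not counts, log2 of the value plus 1 was tested against log2 of hours plus 1 with limma 3.58.1 (trended eBayes) in R 4.3.3, with 5 residual degrees of freedom, for genes with a mean of at least 1. Adjusted p-values are Benjamini-Hochberg over all tested genes, called under 0.05. The p-values rest on the scatter of single libraries around a line. Limma-voom was run on recovered reads (at least 10 in at least 3 libraries). GC trends were per-library natural splines with 5 degrees of freedom over 2447 genes of mean at least 5. Counting intervals (95%) cover counting error only. Only the main limma fit was tested on simulated data, which had independent scatter and no GC trend. The fit on recovered reads and the removal of the GC trend were not.

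Members and lists were chosen with earlier results of these data known. Every member is named, and every library value is given for members called in either fit and, in each role, for those with the 2 highest means, 2 largest positive and 2 largest negative fitted changes. From the further lists, called genes and the 2 largest changes per direction are named. Alternatives covered normalization, pseudocount, filter, time scale, GC trend and each library left out. Promoter sequences came from RefSeq on GRCm38.p6.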

Additional observations from a re-analysis of the deposited data

How the results depend on the processing

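No paired analysis was possible because each time point is 1 library and no replicate numbers pair the libraries. Over all genes the trend test called 19 higher and 4 lower. These counts were 1 and 0 with quantile normalization, 0 and 0 with the GC trend removed, with a pseudocount of 5 or with no filter on low values, 36 and 7 with a pseudocount of 0.1, 162 and 28 on linear hours, 43 and 12 on ranked times, and 49 and 7 with a quadratic term. A mean of at least 5 gave 1 lower gene. Limma-voom on reads called 303 and 104, or 234 and 83 with the GC trend removed. Leaving out each library in turn gave 1 to 52 higher and 0 to 24 lower. Of the members 0 were called in the main fit and 1 (Gins2) on reads, where leaving out a library gave 0 to 1 and removing the GC trend 0.

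At least 2-fold above 0 h at 48 h was 1 member, or 0 with the GC trend removed, with a pseudocount of 5 or against the median of the 0 to 6 h libraries, and 2 with a pseudocount of 0.1. At least 2-fold below was 1, or 0, 0 and 2 for the same choices other than the reference. Removing the GC trend from reads and leaving libraries out of the fit on reads were chosen after seeing the data. Of 648 member results recomputed, 1 call differed and the sign of an uncalled change turned in 48, spread over 14 members. The members' median fitted change stayed between -0.21 and -0.01. The cause of these shifts was not tested. Each time rests on 1 library, and members had at least 142 reads in each.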
